A study of Mus musculus with 7 samples.

Results

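Genes of the mitochondrion, the proteasome and the ubiquitin system were followed in dye-excluding and other cells of the mouse mammary gland. They were the probe sets whose description, in the list of 1632 that the authors deposited for these arrays, holds a word for mitochondria, NADH dehydrogenase, ATP synthase, cytochrome c, ubiquinol, proteasome or ubiquitin. That rule found 37 of the 1632 probe sets. The description of 21 was mitochondrial, that of 4 named the proteasome and that of 12 named ubiquitin, and none fell in more than 1 group. They stand for 24 genes with 1 current symbol (12 mitochondrial, 3 proteasome and 9 ubiquitin genes), and 2 of the probe sets have no symbol here.

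Mitochondria make most of a cell's ATP by passing electrons from NADH along the complexes of the respiratory chain, the first of which is complex I, and by letting protons flow back through ATP synthase. Proteins that are to be destroyed are tagged with ubiquitin by a relay of activating (E1), conjugating (E2) and ligating (E3) enzymes. Deubiquitinases remove the tag, and the proteasome, a barrel of peptidases with a regulatory cap, degrades the tagged protein. Both systems are at work in every nucleated cell of the mammary gland, epithelial, vascular and stromal alike.

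Side population (SP) cells are those that pump out the Hoechst dye and so lie at the dim edge of a cell sorter's plot; non-side population (NSP) cells keep the dye. RNA of sorted mammary gland cells was amplified in 2 rounds and hybridised to Affymetrix mouse arrays, of which 3 carried SP cells and 3 carried NSP cells, with 1 array of a commercial universal mouse reference RNA (REF) beside them. The series' text states 4 replicates of each population and 2 chips removed as outliers. The labels give no strain, age, genotype or treatment for either population, and name no animal for any sort. The p-values therefore reflect only how far these arrays differ among themselves, which may be technical variation. The values given are the deposited linear signals, in the order of replicates 1, 2 and 3, and the differences are SP minus NSP means of log2 signal with the standard error from limma (3 arrays per group).

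The median signal was 83.6 to 90.3 on the SP arrays, 79.3 to 97.2 on the NSP arrays and 89.6 on the reference array. The populations differed in markers of several cell types, counted here among the named genes of each marker list. Named genes are those with a symbol in the authors' deposited list. That list was chosen by the difference between SP and NSP cells on these same arrays. Markers without such a difference could therefore not be counted, and the counts and sums below describe the list only. All 7 named of 9 endothelial markers were higher in SP cells, with summed signals of 8157 to 8981 on SP arrays and 2487 to 2721 on NSP arrays. All 5 named of 7 luminal epithelial markers were lower, with sums of 9538 to 17175 on SP arrays and 29874 to 35394 on NSP arrays, as were all 4 named of 5 basal markers, with 979 to 1135 on SP arrays and 2872 to 4036 on NSP arrays. Of the leukocyte markers, 4 of 5 were lower, with sums of 502 to 759.6 on SP arrays and 3447 to 11174 on NSP arrays; Ptprc stood at 2.1 on 1 SP array. The 3 named of 4 fibroblast markers were higher, with sums of 16005 to 18323 on SP arrays and 8174 to 10871 on NSP arrays. None of these markers passed limma's test over all probe sets, and the luminal and basal markers of the labelled tissue were measured in both populations. The log2 ratio of 3' to 5' signal was higher in SP cells in 3 of 3 pairs, at 3.85 ± 0.50 in SP and 3.28 ± 0.80 in NSP cells for Actb and at 3.65 ± 0.66 in SP and 2.87 ± 0.64 in NSP cells for Gapdh (SD, n = 3 each; two-sided exact permutation p = 0.5 and 0.3, both 0.5 adjusted over the 2 ratios, where 0.1 is the smallest p possible). The part of these shifts in the results below was not tested. In such bulk samples, fewer cells of a type and less RNA per cell cannot be told apart.

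Signals of 31 of the 37 probe sets (83.8%) were lower in SP than in NSP cells, and those of 6 were higher. Over the whole list of 1632 the share lower in SP cells was 54.7%, and over the 38115 probe sets tested it was 50.8%. The median difference was -0.25 over the 37, -0.12 over the whole list and -0.0080 over all tested. The differences were small: those reported here ranged from -0.56 (Usp3) to 0.80 (Ube2c), and 29 of the 37 (78.4%) had the same sign in all 3 same-numbered pairs of arrays (23 lower and 6 higher). Over the whole list 80.3% did, and over all tested probe sets 33.2% (16.8% lower and 16.3% higher). On 12 of the 37 every SP array lay below every NSP array, as on 446 of the 1632 and on 7.57% of all tested. On 2 of the 37 every SP array lay above, as on 366 of the 1632 and on 6.74% of all tested. The authors chose the list by a paired comparison of SP with NSP cells on these same arrays, so these counts describe the list and are no independent evidence of a direction. Members of the list differ by at least 0.185 in the authors' deposited table, and the nearest to that minimum here was Ndufs8 (1434579_x_at) at -0.19. Next by that table were Hccs (1420890_at) at 0.20 and, all at -0.20, Atp5j2, Ndufs8 (1455283_x_at), Ndufv1 (1415966_a_at) and Psmd10.

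None of the 37 passed limma's test at an adjusted p (Benjamini-Hochberg) under 0.05, which 0.0157% of all tested probe sets passed. An unadjusted p under 0.05 in limma was found for 4 of the 37. It was found for 513 of the 1632 in the authors' list and for 8.72% of all tested. With an intensity trend in limma's variance again none of the 37 passed at an adjusted p under 0.05 (1.0% of all tested probe sets did). Nor did any of them with the pairs as a block (0.0% of all tested passed). With block and trend together 2 did, both of Clic4, beside 2.47% of all tested.

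**Figure D1:**
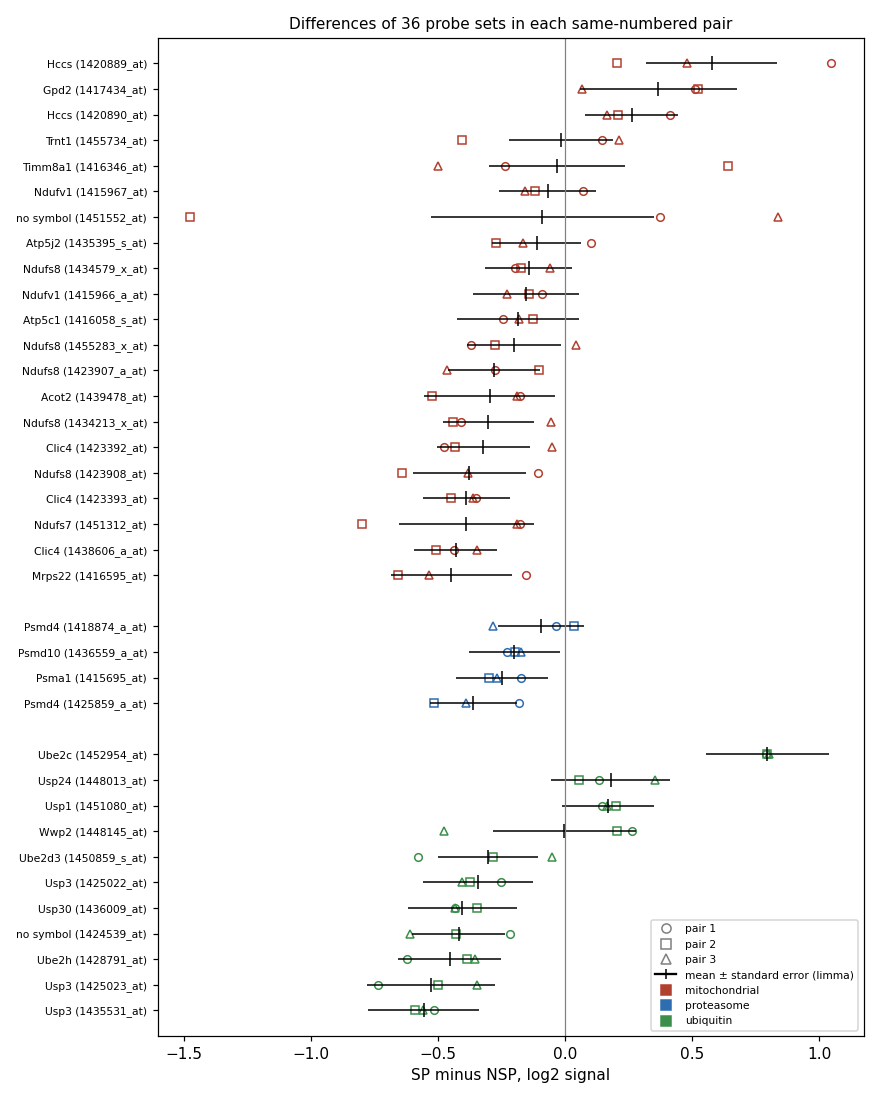
Difference in log2 signal (SP minus NSP, horizontal axis) for 36 of the 37 probe sets. Open symbols are the 3 same-numbered pairs, vertical ticks the means and horizontal bars the standard errors from limma, with mitochondrial probe sets in red, proteasome in blue and ubiquitin in green. Most means lie left of 0, and the 3 pairs of Ube2c coincide at 0.79 to 0.80.

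Of the 21 mitochondrial probe sets, 18 had lower and 3 had higher signals in SP cells, with a median difference of -0.19. With probe sets averaged per gene the mitochondrial median was -0.11, beside -0.12 over the probe sets of the whole list. The 10 probe sets that belong to the respiratory chain or ATP synthase were all lower (median -0.19, range -0.39 to -0.07), 7 of them in all 3 pairs. On 3 of the 10 every SP array lay below every NSP array. The same held on 7.57% of all tested probe sets and on 446 of the 1632 in the authors' list. The 10 come from 5 genes only, 5 of them from Ndufs8, and probe sets of 1 gene are not independent. The proteins they encode are 3 subunits of complex I and 2 of ATP synthase.

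Ndufs8, an iron-sulfur subunit in the arm of complex I that carries electrons inward, was measured by 5 probe sets. On 1423907_a_at it had signals of 1518, 1614 and 1568 in SP cells and 1835, 1731 and 2166 in NSP cells, a difference of -0.28 ± 0.18 (limma adjusted p = 0.762). On 1423908_at it had 501, 339.5 and 477 in SP cells and 539, 529 and 621.5 in NSP cells (-0.38 ± 0.22). On 1434213_x_at it had 775, 729.5 and 805 in SP cells and 1029, 990.0 and 836 in NSP cells (-0.30 ± 0.18). On these 3 the populations did not overlap. The others overlapped: 1434579_x_at read 4135, 4261 and 4769 in SP cells and 4745, 4808 and 4969 in NSP cells (-0.14 ± 0.17), and 1455283_x_at read 3770.4, 3919.7 and 4795 in SP cells and 4879, 4740.3 and 4651.5 in NSP cells (-0.20 ± 0.18). Adjusted p-values of the 5 probe sets were 0.741 to 0.889. Probe sets ending in _x_at or _s_at can also bind other transcripts, so what they add is uncertain.

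Ndufs7, a second iron-sulfur subunit next to it, had signals of 680.0, 494 and 871 in SP cells and 769, 859.5 and 993 in NSP cells, a difference of -0.39 ± 0.26 (limma adjusted p = 0.779). SP sample 2 was the lowest of the 6, and the populations overlapped. Ndufv1, the subunit that takes electrons from NADH, had signals of 2830.4, 2830.3 and 3449 in SP cells and 3017, 3125 and 4045 in NSP cells on 1415966_a_at (-0.15 ± 0.21, adjusted p = 0.911). On 1415967_at it had 1884, 1646 and 1972.5 in SP cells and 1797, 1786 and 2201 in NSP cells (-0.07 ± 0.19, adjusted p = 0.958). Both sets overlapped, and the difference on 1415967_at was 0.0298 without NSP sample 3 and 0.0070 without SP sample 2. The other nine respiratory chain and ATP synthase probe sets kept their sign under every scaling and with any 1 array left out. Ndufs8 and Ndufv1 both lie on chromosome 19, with 11 annotated genes between them, 8 of them protein coding.

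ATP synthase was represented by Atp5c1, the central stalk that turns as protons pass, and Atp5j2, a small subunit of the part in the membrane. Atp5c1 had signals of 7559, 10243 and 11002 in SP cells and 8961, 11195 and 12482 in NSP cells (-0.19 ± 0.24, limma adjusted p = 0.904). It was lower in SP cells in every pair (-0.25, -0.13 and -0.18), though signals also differed widely between samples of 1 population. Atp5j2 had 6937, 6355 and 6392 in SP cells and 6468, 7666 and 7178 in NSP cells (-0.11 ± 0.17, adjusted p = 0.925), and was higher in SP cells in pair 1.

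**Figure D2:**
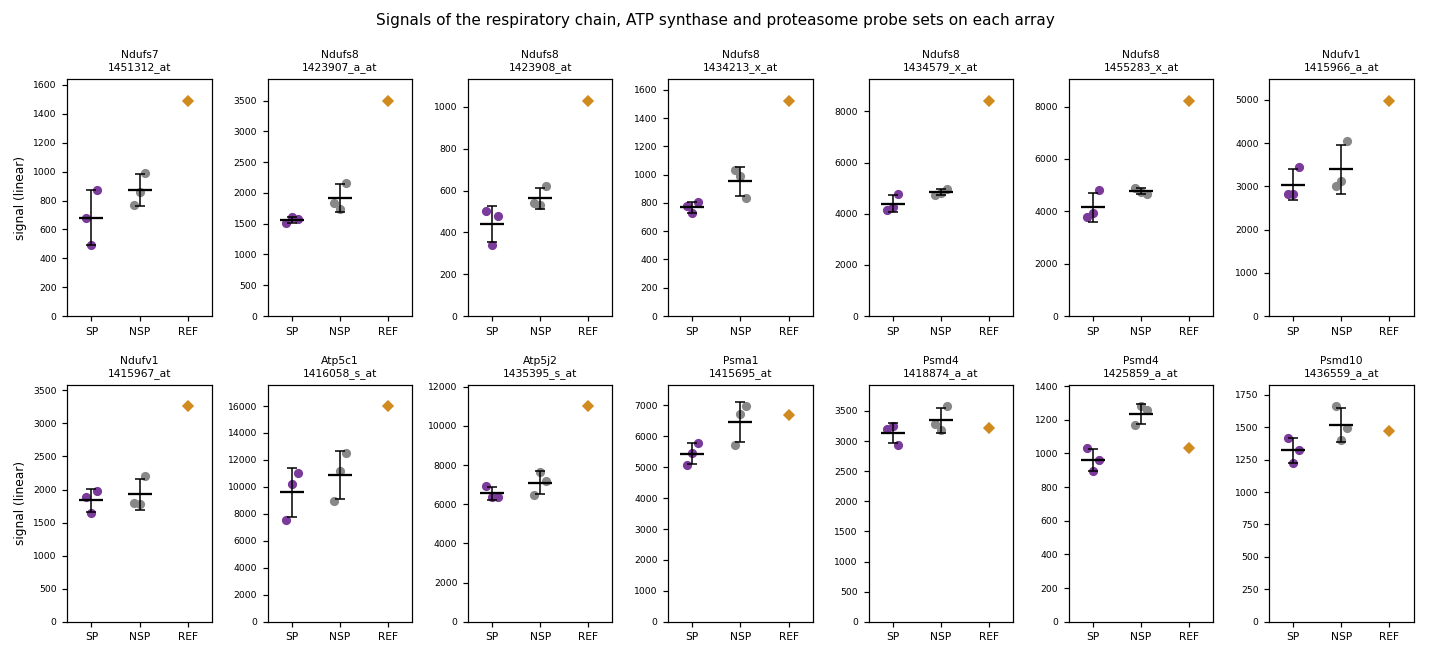
Linear signal (vertical axes, from 0) of the respiratory chain, ATP synthase and proteasome probe sets on each array, with SP left, NSP next and the reference RNA (REF, 1 array) right. Points are arrays, and bars are the mean and SD of 3 arrays. On all 10 respiratory chain and ATP synthase panels the reference lies above all 6 sorted arrays, which it does on none of the 4 proteasome panels.

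Start regions of genes of respiration are known for sites of the factors NRF1 and of the ETS family, so these windows were searched for them. RefSeq windows from 250 bases before to 50 after the start (build GRCm38.p6) were at hand for 21 of the 24 genes, 27 windows in all; Usp1 and Trnt1 were not among them. The NRF1 motif, searched on both strands as were the others, occurred in 1 of the 27 windows, that of Atp5c1, and in 4.6% of all 32851 windows. The ETS letters ACCGGAAG occurred in 3 (Ndufs8, Ube2d3 and Usp30) and in 2.3% of all windows, and TGACNNNGC, the letters of an antioxidant response element, in 1 (Wwp2) and in 12.4% of all. A match describes the letters only. Printed as the members with a match among the respiratory genes are Atp5c1 (chr2:10080383-10080682, minus strand) with the NRF1 match in capitals, and Ndufs8 (chr19:3912725-3913024, minus strand) with the ETS letters, read on the opposite strand, in capitals.
Atp5c1: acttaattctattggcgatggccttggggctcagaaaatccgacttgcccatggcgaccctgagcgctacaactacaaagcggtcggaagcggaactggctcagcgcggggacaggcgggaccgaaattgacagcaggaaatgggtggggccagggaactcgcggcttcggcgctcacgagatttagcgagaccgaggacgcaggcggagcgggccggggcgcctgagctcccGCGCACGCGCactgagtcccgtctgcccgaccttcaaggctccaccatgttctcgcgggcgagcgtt
Ndufs8: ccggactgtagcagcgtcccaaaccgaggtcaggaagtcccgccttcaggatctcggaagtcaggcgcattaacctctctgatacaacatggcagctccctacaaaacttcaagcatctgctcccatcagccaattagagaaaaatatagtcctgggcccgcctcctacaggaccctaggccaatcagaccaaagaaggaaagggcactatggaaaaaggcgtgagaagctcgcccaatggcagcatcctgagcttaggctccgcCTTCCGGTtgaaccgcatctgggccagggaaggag

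Among the other mitochondrial genes, Clic4, a chloride channel protein found in several compartments including mitochondria, was the 1 gene with all its probe sets apart. On 1438606_a_at it had signals of 9903.5, 10030.4 and 10283 in SP cells and 13425, 14263.5 and 13078 in NSP cells, 1.35-fold higher in NSP cells (-0.43 ± 0.16, limma adjusted p = 0.529). On 1423393_at it had 6963, 7497 and 7039.5 in SP cells and 8887, 10236 and 9056 in NSP cells (-0.39 ± 0.17, adjusted p = 0.603). On 1423392_at it had 1037, 1149.8 and 1208 in SP cells and 1444, 1552 and 1254 in NSP cells (-0.32 ± 0.18, adjusted p = 0.726). No SP array reached an NSP array on any of the 3. With the pairs as a block and an intensity trend the first 2 passed in limma (adjusted p = 0.00778 and 0.0145). In that fit 1.31% of all tested probe sets were called lower. With the block alone the first 2 did not pass (limma adjusted p = 0.514 and 0.539). The authors' list was chosen by a paired comparison on these same arrays, so the paired fits are no independent evidence. The 3 Clic4 probe sets, unlike the respiratory genes, had higher signals in both populations than in the reference RNA, which read 6990.0, 4221 and 484.

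Mrps22, a protein of the small subunit of the mitochondrial ribosome, had signals of 705.5, 784 and 812 in SP cells and 784, 1235 and 1176 in NSP cells (-0.45 ± 0.24, limma adjusted p = 0.693), lower in every pair. Acot2, which splits long-chain acyl-CoA in the matrix, had 727, 441 and 666 in SP cells and 823, 635 and 759 in NSP cells (-0.30 ± 0.26, adjusted p = 0.839). Both overlapped between populations.

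The 3 mitochondrial probe sets that were higher in SP cells belong to Hccs, which attaches heme to cytochrome c, and to Gpd2, which feeds electrons from glycerol 3-phosphate into the chain. Hccs had signals of 1639, 1795 and 1667.5 in SP cells and 1233, 1553 and 1487 in NSP cells on 1420890_at (0.26 ± 0.18, limma adjusted p = 0.788). Every SP array lay above every NSP array there, as on 6.74% of all tested probe sets and on 366 of the 1632 in the authors' list. On 1420889_at Hccs had 350.1, 271 and 226.5 in SP cells and 169, 236 and 162 in NSP cells (0.58 ± 0.26, adjusted p = 0.611). Gpd2 had 1744, 2066 and 1060.4 in SP cells and 1223, 1439.9 and 1012 in NSP cells (0.37 ± 0.31, adjusted p = 0.832), and pair 3 differed by 0.07 only.

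The remaining 3 differed by less than their standard errors. Timm8a1, a chaperone of the space between the mitochondrial membranes, had 224, 258 and 178 in SP cells and 263, 166 and 252 in NSP cells (-0.03 ± 0.27), whereas the authors' deposited table gives 0.31. Trnt1, which adds the CCA end to transfer RNAs, differed by -0.02 ± 0.20. The probe set with no symbol, described as like a mitochondrial lipoate-protein ligase of the rat, differed by -0.09 ± 0.44, and its pairs ran from -1.48 to 0.84 (0.835).

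Proteasome signals were lower in SP cells on all 4 probe sets, with a median difference of -0.22. Psma1, a subunit of the outer ring of the barrel, had signals of 5081, 5451.5 and 5781 in SP cells and 5727, 6716.5 and 6964 in NSP cells (-0.25 ± 0.18, limma adjusted p = 0.798). It was lower in every pair, though the highest SP array passed the lowest NSP array. Psmd10, an assembly chaperone of the regulatory cap also known as gankyrin, had 1415, 1221 and 1325 in SP cells and 1659, 1399.6 and 1493 in NSP cells (-0.20 ± 0.18, adjusted p = 0.846). Psmd4, the ubiquitin receptor of the cap, was read by 2 probe sets. On 1425859_a_at it had 1030.5, 896 and 959 in SP cells and 1169.8, 1279 and 1256 in NSP cells (-0.36 ± 0.17, adjusted p = 0.636), with no overlap. On 1418874_a_at it had 3195, 3252 and 2936.5 in SP cells and 3279.7, 3175.5 and 3574 in NSP cells (-0.10 ± 0.17, adjusted p = 0.936), with overlap and a higher SP signal in pair 2. None of the 3 start regions of these genes held the NRF1, ETS or antioxidant response element letters.

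The ubiquitin group held the widest range of differences: 9 of 12 probe sets had lower and 3 had higher signals in SP cells, with a median difference of -0.37. Among the E2 enzymes Ube2c, which works with the anaphase-promoting complex to drive cells out of mitosis, was the highest in SP cells. It had signals of 303, 403.5 and 282 in SP cells and 175.0, 233 and 162 in NSP cells, 1.74-fold higher (0.80 ± 0.24, limma adjusted p = 0.388, unadjusted p = 0.0163). No SP array fell to the level of an NSP array, and the pairs differed by 0.79, 0.79 and 0.80. The 4 markers of dividing cells, Mki67, Top2a, Aurka and Aurkb, were all named and all higher in SP cells, with summed signals of 8520.2 to 9953 on SP arrays and 4449 to 6146 on NSP arrays; their part in the Ube2c difference was not tested. In the reference RNA Ube2c read 1159.8, above all 6 sorted arrays.

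The start region of Ube2c (chr2:164769679-164769978, plus strand, RefSeq, GRCm38.p6) is printed for its CCAAT letters, an element common before genes of the cell cycle. It held 6 matches of CCAAT on either strand, shown in capitals, of which 2 overlap. At least 1 match was found in 37.4% of all windows and in 44.4% of the 27 windows here, and at least 6 in 0.0791% of all windows. This motif was chosen after the sequences had been seen, and the count is a description.
Ube2c: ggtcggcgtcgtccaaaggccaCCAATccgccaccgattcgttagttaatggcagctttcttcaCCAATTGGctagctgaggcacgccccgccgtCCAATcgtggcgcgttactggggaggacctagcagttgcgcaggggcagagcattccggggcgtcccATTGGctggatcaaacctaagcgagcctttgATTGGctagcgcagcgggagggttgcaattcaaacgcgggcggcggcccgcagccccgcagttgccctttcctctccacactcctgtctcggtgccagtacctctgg

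The E2 genes Ube2h and Ube2d3 had lower signals in SP cells, with no overlap on the probe set of either. Ube2h had 224, 250.5 and 306.5 in SP cells and 345, 327.5 and 392 in NSP cells (-0.45 ± 0.20, adjusted p = 0.610). Ube2d3, a broadly used E2, had 393, 492 and 541 in SP cells and 586, 598 and 561 in NSP cells (-0.30 ± 0.20, adjusted p = 0.762), and pair 3 differed by -0.05 only.

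Of the deubiquitinases, Usp3, which acts on ubiquitinated histones, was lower in SP cells in every pair on each of 3 probe sets. On 1435531_at it had signals of 378, 401 and 503 in SP cells and 540.4, 605 and 740.3 in NSP cells, with no overlap (-0.56 ± 0.22, limma adjusted p = 0.549). On 1425023_at it had 313, 402 and 528 in SP cells and 521, 569 and 671 in NSP cells (-0.53 ± 0.25, adjusted p = 0.645). On 1425022_at it had 557, 698 and 668 in SP cells and 662, 904 and 885 in NSP cells (-0.34 ± 0.21, adjusted p = 0.757). On 1425023_at 1 SP array lay above the lowest NSP array, and on 1425022_at 2 did. Usp30, which sits on the outer mitochondrial membrane and opposes the removal of damaged mitochondria, had 178, 245.5 and 213 in SP cells and 240.1, 312 and 287 in NSP cells (-0.40 ± 0.21, adjusted p = 0.690).

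Usp1 and Usp24 were higher in SP cells in all 3 pairs, both by small amounts. Usp1, which removes ubiquitin from DNA repair proteins, had 6511, 7823 and 7433 in SP cells and 5889.5, 6813 and 6639.9 in NSP cells (0.17 ± 0.18, limma adjusted p = 0.877). Usp24 had 2842, 2355.0 and 2181 in SP cells and 2594, 2269 and 1708 in NSP cells (0.18 ± 0.23, adjusted p = 0.907). Both overlapped between populations. The E3 ligase Wwp2 differed by -0.0031 ± 0.28, with 191.5, 272 and 199 in SP cells and 159.5, 236 and 277 in NSP cells. The probe set with no symbol, from a clone like ubiquitin-like 4, had 585, 553 and 571.5 in SP cells and 680.4, 743 and 873 in NSP cells (-0.42 ± 0.18, adjusted p = 0.602), with no overlap.

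The authors' deposited table gives its own differences from dChip, a program that models probe signals, on a log scale read as log2. In it, the authors' deposited table, 30 of the 37 were lower in SP cells (81.1%), against 54.0% of the 1632, and the differences ran from -0.44 to 0.50. The sign was the same as that of the deposited signals for 36 of the 37, all but Timm8a1. By the authors' deposited table the paired p-values of these 37 ran from 2.6e-05 for Psmd4 (1425859_a_at) to 0.0498 for Atp5c1. Being in the list required at most 0.05. The other Psmd4 probe set, 1418874_a_at, had 0.0349 by the same paired test.

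**Figure D3:**
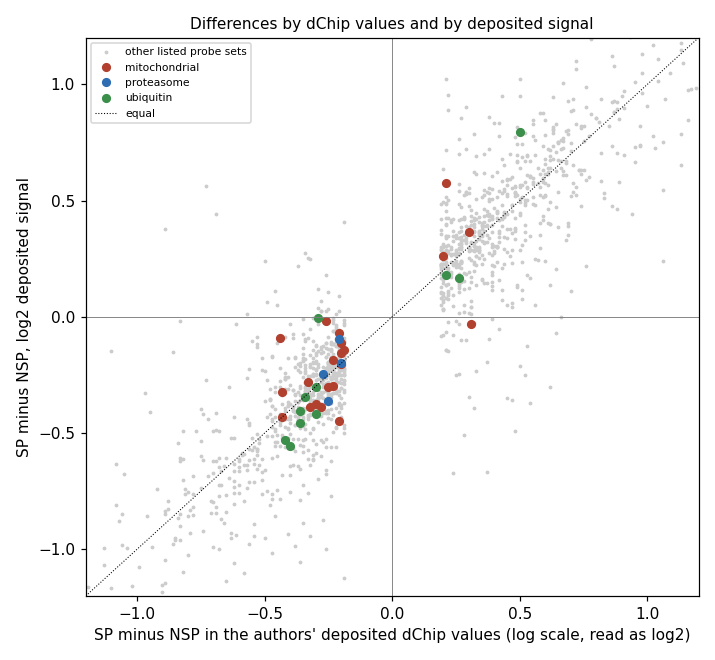
Difference by the authors' dChip values (horizontal axis, log scale read as log2) against difference by deposited log2 signal (vertical axis), SP minus NSP, for the probe sets of the authors' list, with 36 of the 37 followed here in colour. Both axes stop at 1.2 either side of 0, so listed probe sets with larger differences are not drawn. The dotted line marks equal values. Timm8a1 is the coloured point right of 0 on the horizontal and below 0 on the vertical axis.

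Against the reference RNA, a blend of other mouse RNA on 1 array and so without a test, the groups stood differently. Signals on all 6 sorted arrays lay below the reference on all 10 respiratory chain and ATP synthase probe sets, on 21 of the 37 (56.8%), on 37.1% of the whole list and on 26.7% of all tested probe sets. The median difference from the reference over those 10 was -0.96 in SP cells and -0.77 in NSP cells. Over all 21 mitochondrial probe sets it was -0.745 in SP cells and -0.567 in NSP cells. Over the other 11 mitochondrial ones it was -0.07 in SP cells and -0.10 in NSP cells. The whole list had -0.14 in SP cells and 0.01 in NSP cells, and all tested had -0.03 and -0.01. For the 12 ubiquitin probe sets it was -0.99 in SP cells and -0.73 in NSP cells, and for the 4 proteasome probe sets -0.13 in SP cells and 0.05 in NSP cells. Since both populations are set against the same reference array, these medians are not independent of each other.

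**Figure D4:**
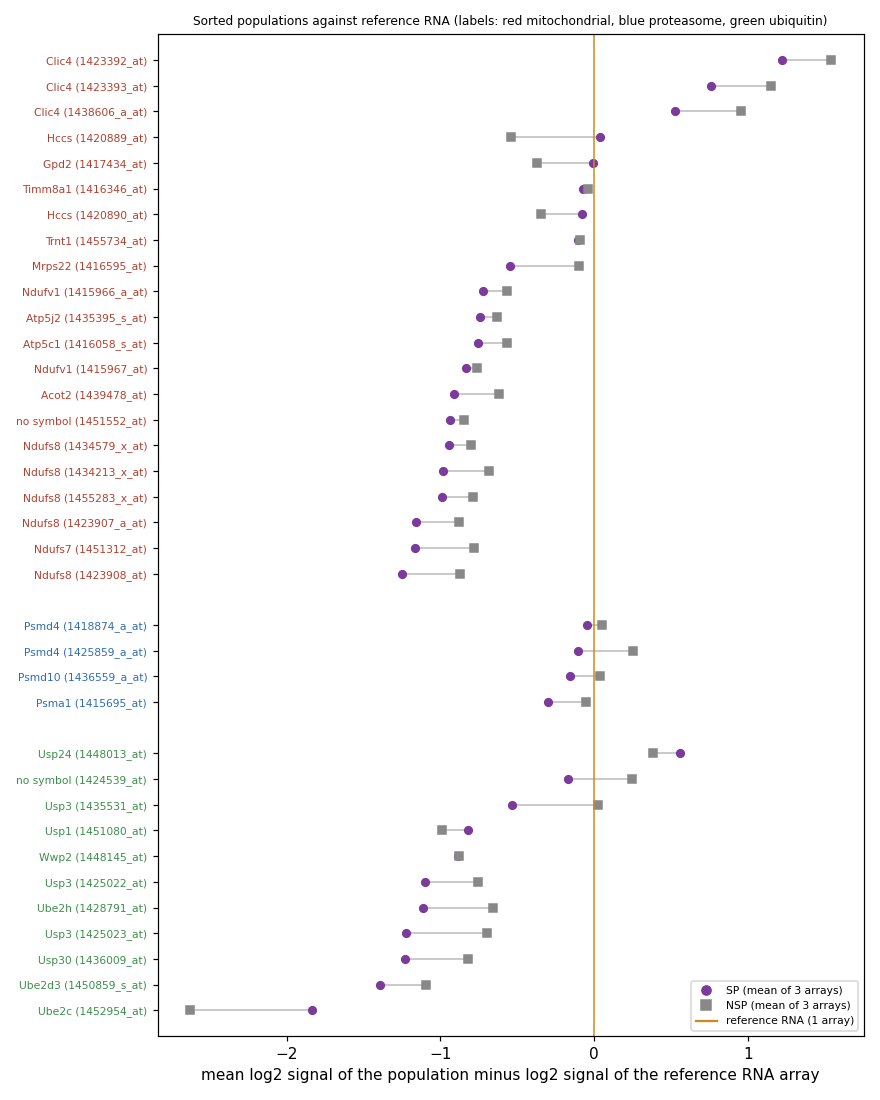
Mean log2 signal of each population minus that of the reference RNA array (horizontal axis) for 36 of the 37 probe sets, with circles for SP and squares for NSP cells (3 arrays each) and a line at 0 for the reference. The 3 Clic4 probe sets lie right of the line and those of complex I and ATP synthase left of it.

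Other genes of these pathways, taken from lists of symbols rather than from the descriptions, were counted among the named probe sets of the authors' list, and none passed limma's test. Of 14 mitochondrial probe sets (13 genes), 8 were lower and 6 higher in SP cells, from -0.65 to 0.49. The share lower in SP cells over the whole list was 54.7%. The genes named next, and those of the ubiquitin lists, were chosen after their values were seen. Of the 14 symbols in the fatty acid oxidation list, 3 were named in the authors' list, and these 3 were lower. Acadl, which starts the breakdown of long-chain acyl-CoA, differed by -0.65 ± 0.27, Acadm, its medium-chain counterpart, by -0.23 ± 0.18, and Etfdh, which hands their electrons to the chain, by -0.34 ± 0.18. Polg2, a subunit of the mitochondrial DNA polymerase, differed by 0.49 ± 0.32, and Ndufaf2, an assembly factor of complex I and not a subunit, by 0.27 ± 0.21. Both further proteasome probe sets were lower: Adrm1, another ubiquitin receptor, differed by -0.30 ± 0.30, and Psme3ip1, which binds a proteasome activator and is no subunit, by -0.10 ± 0.17. No listed gene of complexes II to IV carried a name here.

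Of 24 further ubiquitin probe sets (16 genes), 13 were lower and 11 higher in SP cells, beside 54.7% lower over the whole list. Fbxo5, an inhibitor of the anaphase-promoting complex with which Ube2c works, was higher, with signals of 537, 454 and 256 in SP cells and 225.5, 253 and 193.5 in NSP cells (0.83 ± 0.32, limma adjusted p = 0.536). The 4 probe sets of Skp2, a ligase subunit that promotes entry into S phase, were higher by 0.27 to 0.42. Ube2f, an E2 for the ubiquitin-like protein NEDD8, was lower on 3 probe sets (-0.44, -0.32 and -0.32). Rnf128, an E3 ligase known from T cells as GRAIL, had the largest difference on its 1449036_at, with 633, 580.1 and 744 in SP cells and 1564, 2169 and 1033 in NSP cells (-1.23 ± 0.31, adjusted p = 0.292). On its other probe set, 1418318_at, it differed by -0.49 ± 0.27 (limma adjusted p = 0.708).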

How the data were processed

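The intensities the authors deposited are linear signals of 45101 probe sets on 7 arrays, from MAS5 per the submitters' processing notes. Not given in the sources used here are its version and scaling. The authors' deposited list of 1632 probe sets holds dChip values, read as log2 (the base is not stated, and the list titles would match natural logs), present calls in percent, and the score (statistic) and p-value of a paired test; per the file headers it was filtered at a difference over 0.185, a paired p of at most 0.05 and, in each group, 20 percent or more present calls.

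Signals below 17, the 20th percentile over all SP and NSP arrays together, were raised to it before log2 was taken. The 38115 probe sets above the floor on at least 3 of 6 arrays, without 64 controls, were compared by lmFit and eBayes of limma 3.58.1 under R 4.3.3 (two-sided, Benjamini-Hochberg adjustment over all of them, threshold 0.05), SP against NSP, with 3 arrays each. All 37 members passed the filter. The number of arrays limits the precision. Symbols came from the list's gene numbers and descriptions, matched to RefSeq's mouse gene table (GRCm38.p6): 1483 of 1632 had 1 symbol. The members and the gene lists were chosen with earlier results of these data known. Named in full were up to 5 members higher and 5 lower per group of largest difference among those with 1 sign in 3 pairs, and every subunit of a respiratory complex, ATP synthase or the proteasome. Other values are given as a description. The values of 1 of the 37 are not reported here, though it is in the counts and medians.

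Numbers pair the samples: for 2 of 3 pairs the labels name the same day, and a paired comparison is set in the file headers. Over probe sets, the deviations of paired arrays from their groups had correlations of 0.0387, 0.0408 and 0.12. Between SP and NSP arrays with different numbers the correlations were lower, from -0.0636 to 0.0207. Deviations from a group mean cancel out within the group, so these lower values are not separate evidence of pairing. The comparison was kept without the block, and the block is an alternative. The script was tested on simulated data. The alternatives were the floor, filter, normalization, variance model, block, array weights, threshold, expression measure and leaving out each array.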

Additional observations from a re-analysis of the deposited data

How the results depend on the processing

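The count of probe sets past the threshold over all tested, 6, depended on the setting: it was 200 with the 16744 of highest mean only, 15 with a signal above the floor on all 6 arrays, 24 with the floor at the 10th and 25 at the 40th percentile, 32 with no filter, 3 after median centring, 381 with an intensity trend, 129 at an adjusted p under 0.10, and 0 by limma when 16 was added instead of flooring (3408 at an unadjusted p under 0.05), after quantile normalization (3453) or with any 1 array left out (0 to 0; 2916 to 3457). With the replicate block it was 0 (3758), and with block and trend together 942. Among the 37 the block alone changed no call; with block and trend 2 passed, both of Clic4, and under all other settings run 0 did. The number of mitochondrial probe sets higher in SP cells was 3, against 5 after quantile normalization and 3 to 6 with 1 array left out (6 without SP sample 2, 5 without NSP sample 2 or 3). Their median difference, -0.19, was -0.11 with probe sets averaged per gene and -0.29 to -0.15 with 1 array left out. The ubiquitin median, -0.37, was -0.33 after quantile normalization, -0.30 with dChip values, -0.35 per gene and -0.48 to -0.26 with 1 array left out. The proteasome median stayed between -0.25 and -0.20 with 1 array left out. The difference turned in sign for 5 of the 37 under some setting. Timm8a1 was 0.0384 after quantile normalization, 0.31 by dChip values and -0.24 to 0.11 with 1 array left out; Trnt1 was 0.0161 after quantile normalization and -0.11 to 0.0884 with 1 left out. Wwp2 was 0.00632 with array weights, 0.0131 after median centring, 0.0617 after quantile normalization and -0.23 to 0.17 with 1 left out. Ndufv1 (1415967_at) ran from -0.12 to 0.0298, and the unnamed mitochondrial probe set from -0.34 to 0.30, with 1 left out. The cause of these changes was not tested. With 3 arrays per group, 27 of the 37 differences were under 2 standard errors, and signals under the floor are not resolved.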
